A study of Mus musculus with 14 samples.

Results

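Regions of the mouse genome that carried an Otx2 peak in both adult retina libraries, and no peak of Otx2 in the embryo or at birth and none of BCOR at any stage, were described from CUT&RUN peak lists. They are called adult-only Otx2 regions here. Overlapping peaks (1 bp or more) of the 10 lists on chromosomes 1 to 19 were merged, which gave 39193 regions. Both adult Otx2 lists had a peak in 6575 of them, and 1663 of these (25.3%) had no peak of any of the other 8 lists. The adult-only regions were 4.24% of all merged regions. These regions were chosen by the peak calls of all 10 lists, so the counts and the adult values below describe them and carry no test. Regions of 1 library are not replicates of a condition.

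The retinas came from wild-type CD1 mice. Otx2 and BCOR were each profiled in the adult (2 libraries per protein), at postnatal day 0 (P0, 2 libraries per protein) and at embryonic day 14 (E14, 1 library per protein). CUT&RUN uses an antibody to tether a nuclease to chromatin where a protein sits, and sequences the DNA released there. The labels do not say whether libraries of a stage came from separate animals, and they give the oldest age only as Adult. The sample names read Otx2, but the series design has Otx2/Crx, and whether the antibody also binds CRX is unknown. Whole retina is a mixture of cell types that differs between the embryo, birth and adulthood. Fewer cells that carry a bound site and less binding per cell cannot be told apart in such samples.

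Otx2 is a homeobox transcription factor that sets the fate of photoreceptors and bipolar cells in the developing retina and stays expressed in these cells in adulthood. CRX is a related homeobox factor of photoreceptors that is known to bind similar DNA and to drive genes of the mature rod and cone. BCOR is a corepressor and a subunit of a variant Polycomb complex. It does not bind a fixed DNA motif by itself and is brought to chromatin by other proteins.

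Every peak in the deposited lists has a fold, the authors' ratio of signal to background at its summit in that library. In Otx2 adult replicate 1 the adult-only regions had folds from 3.19 to 34.0, with a median of 6.91. In Otx2 adult replicate 2 they had folds from 3.54 to 86.7, with a median of 13.1. The fold was higher in replicate 2 than in replicate 1 in 1524 of the 1663 regions (91.6%), and the median ratio of replicate 2 to replicate 1 was 1.84. The order of the regions was partly shared by the replicates, with a Spearman rho of 0.667 across the 1663 regions. This rho is a description, since regions of 1 library share its depth and background.

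**Figure D1:**
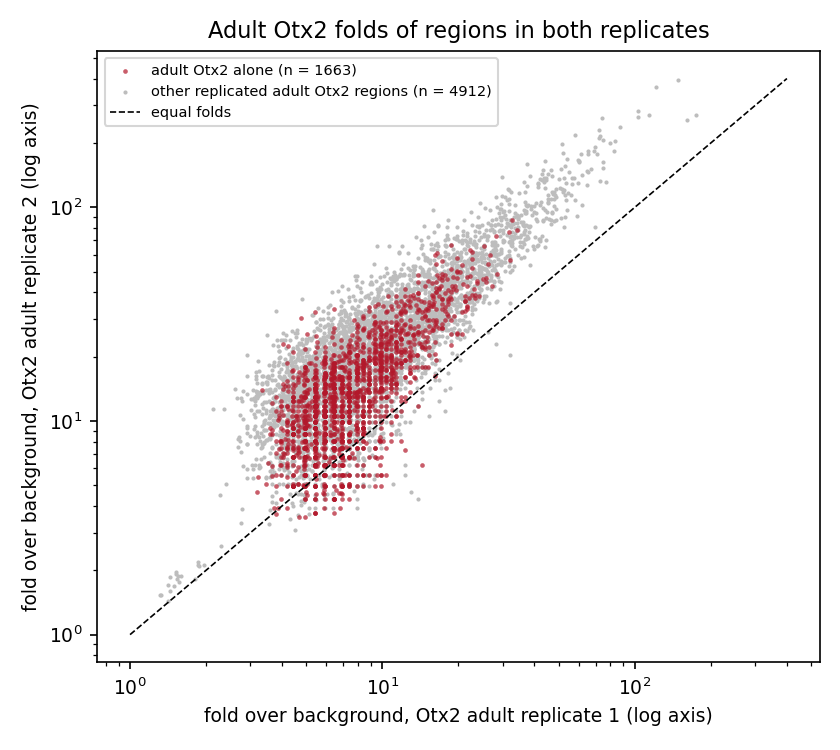
Fold over background of each region in Otx2 adult replicate 1 (horizontal, log axis) and replicate 2 (vertical, log axis); each point is 1 region with a peak in both adult Otx2 lists. The 1663 adult-only regions (red) have folds up to 34.0 and 86.7, lie mostly above the dashed line of equal folds, and do not reach the highest folds of the other regions (grey).

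The fold and the p-value of a peak together gave the number of sequenced fragments piled up at its summit and the background expected there. A whole number of fragments solved both values, within 0.001 in −log10 p, for 99.5% to 100% of the peaks tried in each list. The background also has a floor that no peak of a list falls below, the genome-wide level of that library. The floor was 1.03 fragments in Otx2 adult replicate 1 and 0.615 in replicate 2, against 1.08 and 1.44 in the Otx2 P0 replicates 1 and 2 and 1.48 in Otx2 at E14. The level was lowest in adult replicate 2, and adult replicate 1 was close to P0 replicate 1. How this level relates to the depth of a library was not tested, and total read depth is unknown.

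The adult-only regions rested on few fragments. Their summits held from 7 to 73 fragments in adult replicate 1, with a median of 14 and quartiles of 11 and 20. In adult replicate 2 the summits held from 5 to 129 fragments over the 1662 regions that could be solved. The median was 22 and the quartiles were 14 and 32. The region left out, chr7:116092661-116094370, had the highest replicate 2 fold (86.7) and a p-value too extreme to be solved. So 129 is the highest solved value only. At P0, peaks that lay on the genome-wide level were called from 6 fragments in Otx2 replicate 1 and from 7 in replicate 2, and the lowest folds among them were 3.36 and 3.28. The signal at P0 below the threshold of the peak calls was not analysed here.

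Most adult-only regions stood on flat background. The summit lay on the genome-wide level in 905 of 1663 regions (54.4%) in adult replicate 1 and in 1131 of 1662 (68.1%) in adult replicate 2. Among the 2404 regions that also had Otx2 in development and no BCOR, this was 1178 (49.0%) in replicate 1 and 1478 of 2361 solved (62.6%) in replicate 2. Among the 2379 regions with both developmental Otx2 and BCOR it was 293 of 2332 solved (12.6%) and 307 of 2147 (14.3%). Among the 129 regions with BCOR and no developmental Otx2 it was 65 (50.4%) and 69 of 112 solved (61.6%). Regions with both thus stood on raised local background more often than the other classes in each adult Otx2 library. This was not tested across samples.

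Adult-only regions were found at every strength except the very highest. The 6575 replicated adult regions were ranked by the lower of their adult folds and divided into 4 equal parts. In the strongest part 230 of 1644 regions (13.99%; 95% Wilson interval 12.4 to 15.8%) were adult-only. In the second part it was 448 of 1644 (27.3%, 25.2 to 29.5%), in the next 499 of 1644 (30.4%, 28.2 to 32.6%) and in the weakest 486 of 1643 (29.6%, 27.4 to 31.8%). None of the 100 strongest replicated regions was adult-only, and 26 of the 500 strongest were (5.2%). The strongest adult-only region held rank 183.

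**Figure D2:**
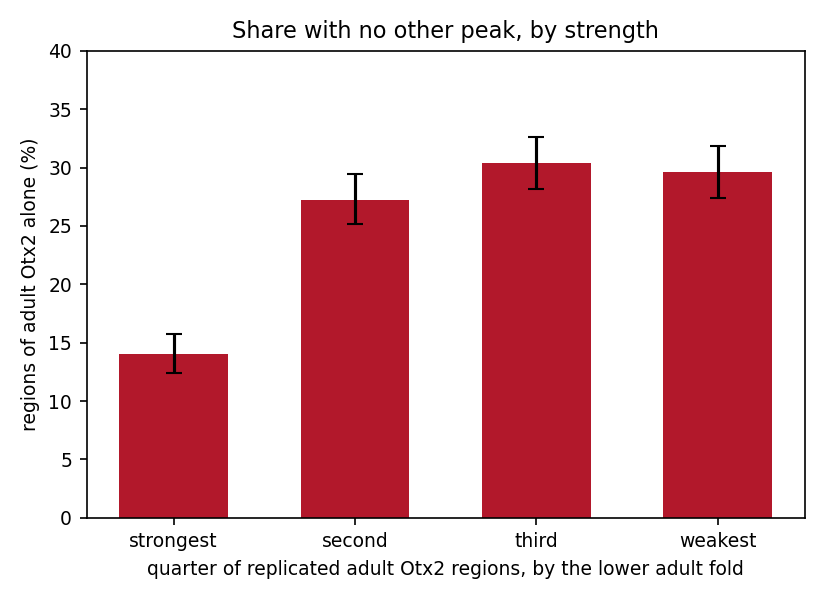
Percent of replicated adult Otx2 regions that are adult-only (vertical axis) in 4 equal parts ranked by the lower of the adult folds (horizontal axis); bars start at 0 and error bars are 95% Wilson intervals, which cover counting error only. The strongest part has 13.99%, and the other parts lie between 27.3 and 30.4%.

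Adult-only regions had lower median folds than regions with Otx2 in development as well. The median fold in adult replicate 1 was 6.91 in adult-only regions, against 8.88 in regions with developmental Otx2 and no BCOR and 7.19 in those with both. In adult replicate 2 the medians were 13.1 in adult-only regions, against 17.3 and 20.2. The fold depends on local background, whose median in replicate 1 was 1.03 in adult-only regions and 2.08 in those with both. In the same order of classes, the median fragments at solved summits were 14, 19 and 26 in replicate 1 and 22, 28 and 48 in replicate 2. The 129 regions with BCOR but no developmental Otx2 had medians of 11.3 and 26.0. In 82 of these 129 the only other list with a peak was BCOR adult replicate 2, which holds peaks with q-values up to 0.248. The peaks of replicate 1 were also narrower, with a median of 337 bp in adult-only regions, against 434 bp in regions with developmental Otx2 and no BCOR and 398 bp in those with both. The quartile ranges of the folds overlapped between the classes, and the classes share libraries. In replicate 1 the lower quartile was 5.45 in adult-only regions and 5.16 in those with both.

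**Figure D3:**
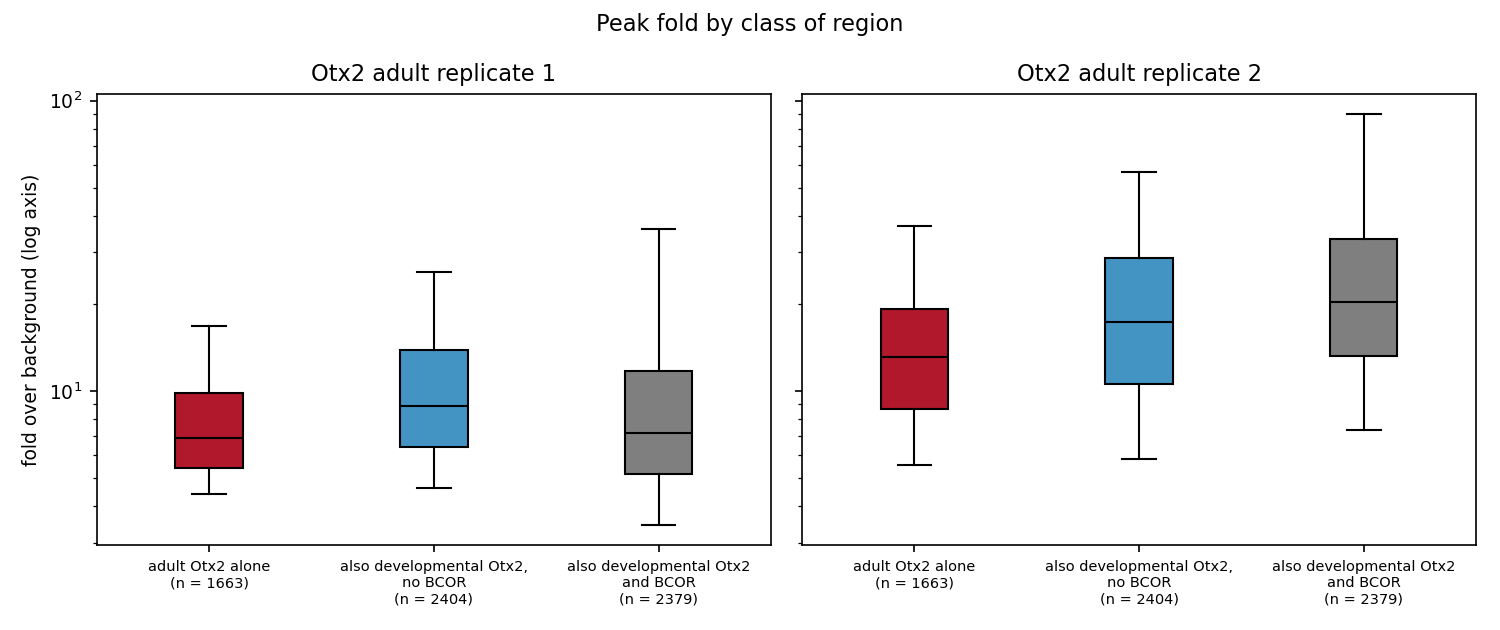
Fold over background (vertical, log axis) in adult replicate 1 (left panel) and 2 (right panel) for adult-only regions (n = 1663), regions with developmental Otx2 and no BCOR (n = 2404) and regions with both (n = 2379). Boxes span the quartiles with the median, and whiskers run from the lowest to the highest values without the outer 5% on each side; adult-only regions have the lowest median in both panels.

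The replicates placed the summits of most adult-only regions close together. The median distance between the summits was 42 bp (quartiles 18 and 87.5 bp), and it was 100 bp or less in 1328 of 1663 regions (79.9%; 95% Wilson interval 77.9 to 81.7%). This share was 82.4% (80.9 to 83.9%) in regions with developmental Otx2 and no BCOR and 84.8% (83.3 to 86.2%) in those with both. In the 129 with BCOR and no developmental Otx2 it was 86.8% (79.9 to 91.6%). Within the adult-only regions the distance grew as the fold fell. In the strongest 416 regions, with a lower fold of 9.87 or more, the median distance was 25 bp and 92.1% had summits within 100 bp. In the weakest 415 the median was 64 bp and 69.4% had summits within 100 bp. The peak of replicate 1 lay wholly inside that of replicate 2 in 1102 regions (66.3%).

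The strongest adult-only regions, ranked by the lower of the adult folds, were high in both libraries. The region chr8:122380997-122382042 (mm9) had folds of 34.0 and 77.9 in adult replicates 1 and 2, with 69 and 126 fragments at summits 4 bp apart. The region chr7:116092661-116094370 had folds of 32.6 and 86.7 at summits 8 bp apart. In chr14:34763016-34764151 the folds were 32.1 and 56.3, with 64 and 90 fragments, and both replicates put the summit on the same base. These places had no called peak of Otx2 at P0 or E14, but peaks of earlier stages lay close to some of them. A peak of Otx2 P0 replicate 1 with a fold of 18.3 stood 1342 bp from the region on chromosome 14. One with a fold of 10.4 stood 3763 bp from that on chromosome 8.

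The region chr17:59129196-59131764 was both among the strongest and among the widest, at 2569 bp, with folds of 31.6 and 76.2. Its nearest peak of another list lay 100.037 kb away, while the nearest other adult-only region was 0.478 kb away. The remaining 8 of the 12 strongest regions had folds of 25.2 to 28.5 in replicate 1 and 42.7 to 73.1 in replicate 2. All 12 had summits at most 77 bp apart. They lay on 9 chromosomes, with 2 each on chromosomes 8, 11 and 13. The distance from them to the nearest peak of another list ran from 715 bp, for chr11:71931213-71932262, to the 100.037 kb on chromosome 17.

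Of the 5 widest regions, 4 held 2 peaks of adult replicate 1. The widest, chr10:21715734-21719357, covered 3624 bp, with 2 peaks in adult replicate 1 and 1 in replicate 2 and folds of 16.3 and 54.4. A P0 Otx2 peak lay 267 bp from its edge. Joining peaks up to 500 bp apart would merge them, so this widest region is adult-only by the 1 bp rule alone. The median width of the adult-only regions was 546 bp (quartiles 442 and 691 bp). Replicate 1 had more than 1 peak in 16 of the 1663 regions, and replicate 2 in 0. The median width was 352 bp without adult replicate 1 and 314 bp without adult replicate 2. Each is a different set of regions, and the 5385 without replicate 1 had a median fold of 7.07 in replicate 2. In the adult-only regions themselves the median width of the replicate 2 peak was 532 bp.

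Otx2 peaks of birth were near many adult-only regions without touching them. The median distance to the nearest P0 Otx2 peak was 15.2 kb, and 642 of 1663 regions (38.6%; 95% Wilson interval 36.3 to 41.0%) had such a peak within 10 kb. Measured to the nearest merged region that held a P0 Otx2 peak, 646 adult-only regions (38.8%, 36.5 to 41.2%) lay within 10 kb. Of the regions with developmental Otx2 and no BCOR, 1179 of 2404 (49.0%, 47.0 to 51.0%) had another such region within 10 kb, and of those with both, 993 of 2379 (41.7%, 39.8 to 43.7%) did. The interval of the adult-only regions lay below that of regions with developmental Otx2 and no BCOR and overlapped that of regions with both. The classes were set by the same peak lists, so such comparisons of intervals, here and below, are descriptions and not tests. Of the 129 regions with BCOR and no developmental Otx2, 48 (37.2%, 29.4 to 45.8%) had one. Within 100 kb, 1550 adult-only regions (93.2%) had a P0 Otx2 region. The other classes were near this level, with 96.5% for developmental Otx2 and no BCOR, 93.7% for both and 92.2% for the 129.

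**Figure D4:**
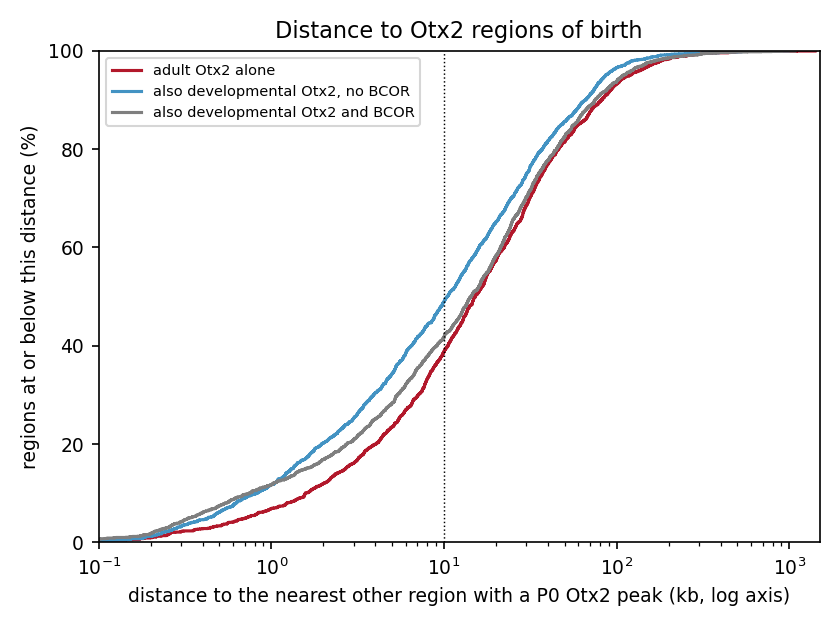
Percent of regions (vertical axis) at or below a distance in kb to the nearest other region with a P0 Otx2 peak (horizontal, log axis; distances under 0.1 kb are drawn at 0.1), for adult-only regions (red), regions with developmental Otx2 and no BCOR (blue) and regions with both (grey). At the dotted line of 10 kb the lines stand at 38.8, 49.0 and 41.7%.

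The adult folds were much alike at every distance from the Otx2 peaks of birth. The median folds were 6.87 and 13.1 in replicates 1 and 2 for the 642 regions with a P0 Otx2 peak within 10 kb. They were 6.998 and 13.6 for the 713 regions at 10 to 50 kb and 6.93 and 12.9 for the 308 regions beyond 50 kb. The replicates differ in the scale of their folds, so these medians are to be compared within each library only. Their differences were not tested.

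BCOR peaks were also nearby in some cases. Of the adult-only regions, 454 (27.3%; 95% Wilson interval 25.2 to 29.5%) had another region with a BCOR peak of any stage within 10 kb. The share was 26.0% (24.2 to 27.7%) in regions with developmental Otx2 and no BCOR, 24.9% (23.2 to 26.7%) in those with both and 34.1% (26.5 to 42.6%) in the 129 with BCOR and no developmental Otx2. The interval of the adult-only regions overlapped each of these. Counting all of the 8 other lists, the nearest peak lay at a median of 12.5 kb, within 1 kb for 111 regions (6.67%) and over 100 kb away for 73 (4.39%). It belonged most often to Otx2 P0 replicate 2, for 622 regions (37.4%), and to Otx2 P0 replicate 1, for 423 (25.4%), which are the longest lists.

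At the extremes, chr4:68293694-68294247 lay 484.736 kb from any peak of the other lists, with folds of 6.41 and 4.33 in the adult replicates. Its summits were 208 bp apart. By contrast chr4:130393386-130393616, with folds of 4.93 and 5.57, ended 5 bp from a P0 Otx2 peak with a fold of 59.4. That region is adult-only by the 1 bp rule alone, and joining peaks up to 500 bp apart left 1584 adult-only regions in place of 1663.

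Some adult-only regions lay close to each other. Another adult-only region was within 10 kb of 215 of them (12.9%; 95% Wilson interval 11.4 to 14.6%). An adult-only region was within 10 kb of 183 of the 2404 regions with developmental Otx2 and no BCOR (7.61%, 6.62 to 8.74%) and of 189 of the 2379 with both (7.94%, 6.92 to 9.10%). It was within 10 kb of 24 of the 129 regions with BCOR and no developmental Otx2 (18.6%, 12.8 to 26.2%). The interval of the adult-only regions lay above those of the regions with developmental Otx2 and overlapped that of the 129, so closeness to adult-only regions was not particular to them. In 82 of the 129, a call in BCOR adult replicate 2 was all that set the region apart from the adult-only ones. Within 50 kb the shares were 30.4% of the adult-only regions and 40.3% of the 129. Another adult-only region was within 1 kb of 46 of the 215. Runs in which neighbours were under 50 kb apart held 505 adult-only regions (30.4%), in 219 runs. Of these runs, 168 had 2 regions, 42 had 3, and the longest had 6. Without adult replicate 1, where a peak of replicate 2 was enough, 58.8% of a larger set of 5385 regions had a neighbour within 50 kb.

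The run with the most adult-only regions, chr2:129628314-129702475, held 6 adult-only regions over 74.2 kb. Their folds ran from 3.78 to 12.8 in adult replicate 1 and from 4.95 to 36.5 in replicate 2. In their midst a stronger adult region, chr2:129630658-129632107, with folds of 38.2 and 81.1 carried BCOR and no developmental Otx2. The adult-only regions chr2:129629491-129630459 and chr2:129632421-129633354 lay on either side of it, each less than 500 bp away. Joining peaks up to 500 bp apart would merge both with it, so they are adult-only by the 1 bp rule alone. Inside the run on chromosome 2, 2 other regions had developmental Otx2. A run on chromosome 8, chr8:122318028-122394878, held 5 adult-only regions and included the strongest one. Of the other regions inside it, 3 had developmental Otx2 and 2 had BCOR. In the run chr18:61372049-61406215 all 5 regions were strong, with folds of 10.8 to 22.2 in replicate 1 and 26.6 to 47.7 in replicate 2, and no developmental Otx2 or BCOR peak lay between them. The run chr6:91605155-91619153 was the most compact of those described, with 5 regions in 13.999 kb and likewise no developmental Otx2 or BCOR peak. Its regions chr6:91605155-91605541 and chr6:91605681-91606307 lay less than 500 bp apart, as did chr6:91613458-91614064 and chr6:91614390-91614848. Joining peaks up to 500 bp apart would merge each pair, so the run would hold fewer regions. The run chr13:100168869-100240619 held 5 adult-only regions over 71.8 kb. Of the other regions inside it, 3 had developmental Otx2 and 1 had BCOR.

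**Figure D5:**
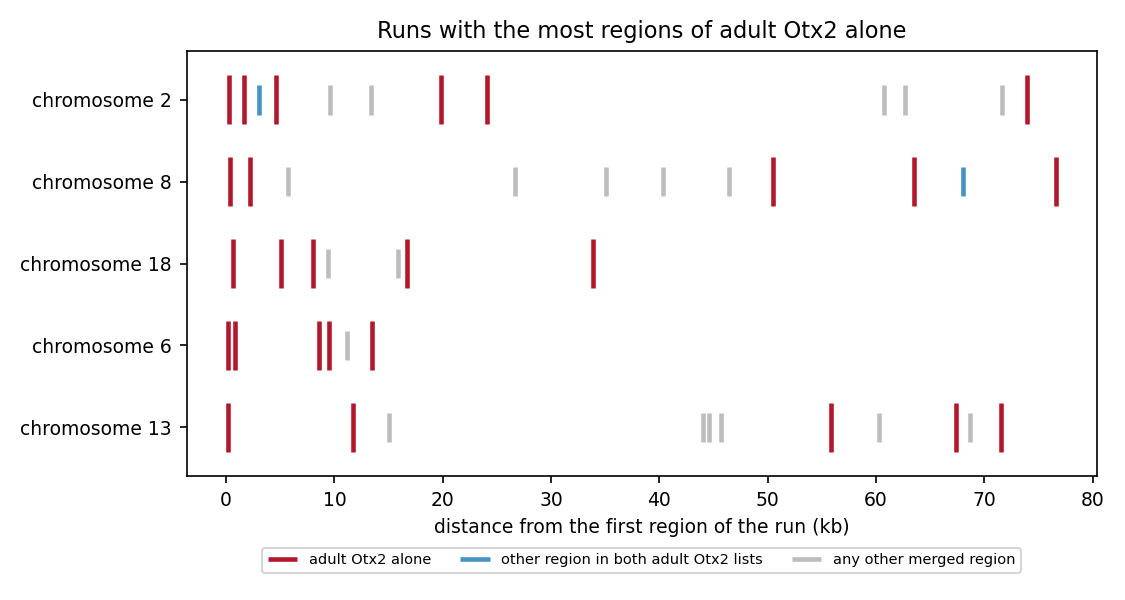
The run of 6 adult-only regions and 4 of the 5 runs of 5, one per row (vertical axis, by chromosome), with the centre of each region in kb from the first region of the run (horizontal axis). Tall red ticks are adult-only regions, blue ticks are other regions with both adult Otx2 peaks, and grey ticks are any other merged region; the rows of chromosomes 18, 6 and 13 span 34.2, 13.999 and 71.8 kb and hold no blue tick.

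Regions in such runs had higher median folds than lone ones in both adult libraries, which was not tested across samples. The replicates lay further apart, but that is a difference of scale that both groups share. The median folds were 7.68 and 15.5 in adult replicates 1 and 2 for the 505 regions in runs, against 6.87 and 12.4 for the 1158 regions without a neighbour within 50 kb. Of the strongest 416 adult-only regions 38.5% had a neighbour within 50 kb, and of the weakest 415 it was 23.6%. The median distance to a P0 Otx2 peak was 14.6 kb for the regions in runs, against 16.1 kb for those without such a neighbour.

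The adult-only regions were spread over all 19 chromosomes, from 42 on chromosome 16 to 138 on chromosome 2. Their share of the replicated adult regions ran from 21.3% on chromosome 5 to 32.1% on chromosome 18. The 95% Wilson interval of the share held the overall value on 16 of the 19 chromosomes. The others were chromosomes 12, 13 and 18, with 30.7, 30.8 and 32.1%. These intervals were not adjusted for the number of chromosomes.

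A minority of replicated adult regions missed the rule by a single list. Of the 6575, 4765 (72.5%) had an Otx2 peak of either P0 library, 2341 (35.6%) one of Otx2 at E14 and 2508 (38.1%) one of BCOR at some stage. Both P0 Otx2 libraries had a peak in 4202 (63.9%). Exactly 1 peak of another list stood in 570 of the 6575, and it was a P0 Otx2 peak in 467. As their only other list, 325 regions had Otx2 P0 replicate 2, 143 had Otx2 P0 replicate 1 and 82 had BCOR adult replicate 2. The weakest single peaks lay in BCOR adult replicate 2, with 5 fragments, a fold of 3.60 and a −log10 q-value of 0.688. One of them stood at chr1:74484424-74485040, where the adult Otx2 folds were 15.8 and 96.6. Just inside the rule, chr7:125341891-125342289 had a −log10 q-value of 1.41 in adult replicate 1, with folds of 3.22 and 5.48.

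Among the alternatives tried, leaving out adult replicate 1 changed the number of regions most. Adult replicate 2 alone, with no peak of any other list, accounted for 3717 of its 14484 regions (25.7%), at a median of 9 fragments. For adult replicate 1 it was 259 of 7006 (3.70%), at a median of 10 fragments. With adult replicate 1 left out there were 5385 such regions with a median fold of 7.07 in replicate 2, against 1663 with a median of 13.1 when both were required. With adult replicate 2 left out there were 2005. The highest fold among regions of replicate 2 alone was 22.9, at chr6:146556558-146557214, with 36 fragments.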

How the data were processed

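The values are 10 CUT&RUN peak lists of mouse retina, grouped by the sample titles. The submitters' processing notes name Bowtie2, MACS2, mm9 and mm10 without versions or roles. The chromosome names in the lists are those of mm9, and coordinates are on mm9, counted from 1. Per the labels, each library has a peak list of its own. The lists as deposited give for every peak a fold (ratio of signal to background), a score, a −log10 p-value, a −log10 q-value and the summit. The largest deposited q-value was 0.0466 to 0.0496 in the Otx2 adult and P0 lists and the BCOR P0 lists, 0.0996 and 0.0999 at E14 for Otx2 and BCOR, and 0.248 in the adult BCOR lists. The sources used here give neither a control library nor the calling threshold. Total read depth is unknown.

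Peaks on chromosomes 1 to 19 were merged at 1 bp overlap, and the strongest peak of each list stands for it. Fragments k and background b were solved from fold = (k + 1)/(b + 1) and the Poisson p-value of more than k fragments. This was done for peaks with a −log10 p below 250 and tested on simulated data. Peaks at or above that limit, the most significant ones, were left unsolved. The formula is taken from how MACS2 works and was checked on the values only. Wilson intervals (95%) cover counting error only, and neighbouring regions are not independent. Regions named are the 12 strongest by the lower adult fold, the 5 widest, the 5 runs with the most members (ties by the largest fold), the 3 farthest and nearest to other lists, and the 3 just inside and outside the rule, of which examples are given. Members and analyses were chosen with earlier results of these data known.

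Without an mm9 genome or its annotation, genes, motifs and sequences at these regions, like the planned test of the nearest genes in the 4 RNA samples, were not analysed here. Python 3.11.15, pandas 2.3.3 and scipy 1.17.1 were used.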

Additional observations from a re-analysis of the deposited data

Results flagged for a closer look

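The X chromosome lay outside the rule and was used in no comparison. There 41 of 125 regions with both adult Otx2 peaks had no peak of any other list (32.8%; 95% Wilson interval 25.2 to 41.4%). Their median folds were 7.40 and 16.1 in adult replicates 1 and 2, and the highest were 25.2 and 70.6. The interval holds the 25.3% of chromosomes 1 to 19, so the X chromosome is given only as data outside the comparisons and not as a difference.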

How the results depend on the processing

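Of 135 values under the alternatives, 104 stayed within the spread between replicate lists or the counting interval (for the number of regions, within 1.5 times), and 31 moved. Some of these limits were wide, so a value that stayed within them says little. The limit was 4.40 for the median folds of 6.91 and 13.1, and 138 bp for the median width of 546 bp. Joining peaks up to 500 bp apart gave 36.4% of regions within 10 kb of a P0 Otx2 peak and 28.0% within 50 kb of another adult-only region. Joining up to 2000 bp gave an adult-only share of 22.6%, a median distance to a P0 Otx2 peak of 19051 bp, and 30.2, 20.1 and 23.1% within 10 kb of a P0 Otx2 peak, within 10 kb of a BCOR peak and within 50 kb of another adult-only region. By construction it removes regions with close neighbours. Windows of 100 bp around summits gave a share of 26.6%, a median summit distance of 37 bp, 84.3% of summits within 100 bp, a median width of 238 bp and 41.8% near a P0 Otx2 peak. Without the BCOR lists the share was 27.3%, rho was 0.700 and 33.4% had a neighbour within 50 kb; the share near BCOR could not be computed. Stricter q-values and the X chromosome moved no value beyond these limits. Leaving out an adult or P0 Otx2 library gave 1807 to 5385 regions, shares of 27.5 to 37.2%, median folds in adult replicate 2 of 7.07 to 13.6, widths of 314 to 547 bp, P0 distances of 13001 to 19440 bp, 33.7 to 43.4% near a P0 Otx2 peak and 31.9 to 58.8% near another adult-only region. The cause of the other moves was not tested. No paired analysis was possible because no result here comes from a test. The planned RNA and motif alternatives were not run, since no genome of mm9 was used here.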
